A study of Homo sapiens with 6 samples.

Results

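The thrombospondins and their receptors CD47 and CD36 were followed in U87 cells after knockdown of PRMT6. The 7 genes were THBS1, THBS2, THBS3, THBS4, COMP, CD47 and CD36, chosen by symbol from the 60612 genes of the expression table, and each symbol matched 1 gene. U87 is an established human glioblastoma (GBM) cell line. RNA was sequenced from 3 libraries of cells carrying a scramble shRNA (NC) and from 3 libraries of cells carrying an shRNA against PRMT6 (shPRMT6). Both groups were infected with shRNA lentivirus, so the control cells had been through infection as well, and which of the PRMT6 shRNAs was sequenced is not given in the sources used here. Infected cells were selected with puromycin, and whether they were clones is not stated. The p-values measure only the spread between the 3 libraries of each group.

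Thrombospondins are secreted, calcium-binding glycoproteins that assemble into multimers and contact receptors, proteases and growth factors at the cell surface. THBS1 and THBS2 form trimers, carry type 1 repeats and inhibit the growth of blood vessels, while THBS3, THBS4 and COMP form pentamers without these repeats. CD47 binds the C-terminal domain of THBS1 and also gives macrophages a "do not eat" signal through SIRPA, and CD36 binds the type 1 repeats and takes up fatty acids. PRMT6 is an arginine methyltransferase that places asymmetric dimethylation on histone H3 and is known mainly as a repressor of transcription. THBS1 is a published example of a gene repressed by PRMT6, and that is why the family was examined here.

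The promoters of THBS1, CD47 and THBS3 are shown because THBS1 is the published target, CD47 is the most abundant of the 7 genes and THBS3 is the member that passed the test below. The bases end just before the RefSeq transcription start, on GRCh38 (p14 tables), and are written 5′ to 3′ on the strand of the gene. Capitals mark matches, on either strand, to the GC box GGGCGG, the CCAAT box CCAAT, the TATA box TATAAA, the E-box CACGTG, the AP-1 site TGACTCA and the TEAD site GGAATG. THBS3 has 2 RefSeq starts, and the stretch shown lies before the downstream one. The 250 bases before the other overlap an MTX1 exon. For THBS3 the bases next to the start are left out, since longer THBS3 transcripts have an exon there. The stretches are chr15:39580829-39581078 on the plus strand for THBS1, chr3:108091032-108091281 on the minus strand for CD47 and chr1:155207982-155208147 on the minus strand for THBS3.
THBS1: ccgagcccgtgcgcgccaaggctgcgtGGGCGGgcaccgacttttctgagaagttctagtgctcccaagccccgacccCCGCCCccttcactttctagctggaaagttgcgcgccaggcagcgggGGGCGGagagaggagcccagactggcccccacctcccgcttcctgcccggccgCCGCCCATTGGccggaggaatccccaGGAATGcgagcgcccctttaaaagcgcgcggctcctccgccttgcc
CD47: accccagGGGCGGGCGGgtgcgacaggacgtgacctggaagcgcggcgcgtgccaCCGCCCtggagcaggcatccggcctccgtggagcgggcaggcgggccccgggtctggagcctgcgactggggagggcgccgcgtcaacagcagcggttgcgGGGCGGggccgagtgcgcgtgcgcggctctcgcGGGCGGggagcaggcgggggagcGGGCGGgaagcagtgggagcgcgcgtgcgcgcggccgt
THBS3: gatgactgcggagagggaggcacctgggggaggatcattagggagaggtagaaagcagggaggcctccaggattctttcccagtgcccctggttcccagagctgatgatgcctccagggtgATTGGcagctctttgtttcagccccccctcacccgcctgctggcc

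The THBS1 stretch held 69.6% G and C and 24 CpG pairs, with 4 GC boxes, 1 CCAAT box and 1 TEAD site. The CD47 stretch held 79.6% G and C and 39 CpG pairs, with 6 GC boxes, of which the first 2 overlap. The printed THBS3 stretch, of only 166 bases, held 61.4% G and C, 2 CpG pairs and 1 CCAAT box. The full 250 bases before that THBS3 start held 64.4% G and C and 5 CpG pairs. They also held a further CCAAT box 78 bases and a GC box 64 bases before the start. The 250 bases before the other THBS3 start held 68.8% G and C, 11 CpG pairs and a GC box. Which of the THBS3 starts these cells use was not tested. Over the 250 bases before the starts of 35116 RefSeq promoters, the median was 58% G and C with 11 CpG pairs. A GC box was in 42.6% of those promoters, a CCAAT box in 32% and a TEAD site in 11.9%. A match to these letters is a description of the window and not a measured binding site.

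The counts of a library summed to between 56388161 and 75887696. Levels are given as FPKM (fragments scaled to transcript length and library size), which can be compared between genes, or as CPM (counts scaled to library size after TMM scaling, with factors from 0.992 to 1.01), which were used for the fold changes. After a filter on low counts, 18106 genes were compared with the quasi-likelihood test of edgeR, p-values were adjusted by the Benjamini-Hochberg method over all of them, and a gene was called at an adjusted p under 0.05. PRMT6, the targeted gene, lies at chr1:107056679-107067636. It had 9.33, 7.97 and 7.19 CPM in NC replicates 1, 2 and 3 and 3.57, 4.58 and 5.24 CPM in shPRMT6 replicates 1, 2 and 3. The groups did not overlap, and PRMT6 fell by 0.87 on the log2 scale (SE 0.187, 95% interval -1.32 to -0.42, adjusted p = 0.0225 by edgeR's quasi-likelihood test). Without NC replicate 1, shPRMT6 replicate 1 or shPRMT6 replicate 2 the adjusted p of PRMT6 was 0.0613, 0.0588 and 0.0713. The remaining transcript was 54.7% of the NC mean. In RNA from whole cultures, fewer cells with a transcript and less of it per cell cannot be told apart, here and for every gene below.

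The U87 label was set against marker genes. Of 9 glioma or astrocytic markers, 4 had a mean of at least 1 FPKM in these cells, with VIM at a mean of 1299 FPKM in NC and CD44 at 47.8 FPKM, while GFAP, S100B, SOX2 and AQP4 were under 0.1 FPKM and S100B and AQP4 had no reads. Platelet markers, relevant because platelets store THBS1, summed to 0.0721 to 0.0853 FPKM in NC and 0.0401 to 0.113 FPKM in shPRMT6, and PF4 and PPBP had no reads. The adipocyte markers, relevant to CD36, summed to at most 0.0733 FPKM in any library. Of the macrophage or microglia markers, CD68 had a mean of 83.6 FPKM in NC and CSF1R 2.11 FPKM. PTPRC, AIF1 and CD14 were under 0.1 FPKM. Endothelial markers summed to 1.49 to 1.94 FPKM in NC and 2.58 to 2.76 FPKM in shPRMT6. Epithelial markers summed to 2.04 to 3.33 FPKM in NC and 0.518 to 1.77 FPKM in shPRMT6. Fibroblast or smooth muscle markers summed to 157 to 167 FPKM in NC and 189 to 191 FPKM in shPRMT6. Of the 4 cartilage cell markers, COL2A1 and ACAN had no reads in any library and MATN1 had a mean of 0.0213 FPKM in NC and 0.0196 FPKM in shPRMT6. The fourth, SOX9, a transcription factor also found in glial cells, had 2.15 to 2.54 FPKM in NC and 3.51 to 4.08 FPKM in shPRMT6 and rose by 0.63 on the log2 scale (adjusted p = 0.0106, edgeR). The 4 markers together summed to 2.2 to 2.56 FPKM in NC and 3.51 to 4.1 FPKM in shPRMT6, and their part in the results below was not tested.

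The members spanned a wide range of levels. By mean FPKM over the 6 libraries the order was CD47 (18.2), THBS3 (8.92), THBS2 (5.52), THBS1 (0.118), THBS4 (0.0955), CD36 (0.00157) and COMP, which is listed at 0.0001 FPKM, the value the table gives to genes without reads. CD47 was above THBS3 and THBS3 above THBS2 in 6 of 6 libraries, and the ranges of these 3 genes did not overlap. THBS1 and THBS4 could not be put in order, since THBS1 was the higher of the pair in 4 of 6 libraries and their ranges overlapped. Among the genes tested, the mean FPKM of CD47 stood at percentile 88.8, THBS3 at 78.2, THBS2 at 68.7, THBS1 at 10.6 and THBS4 at 8.68. Most thrombospondin transcript in these cells was thus THBS3 and THBS2. THBS3 made up 52.3% to 59.5% of the summed FPKM of the 5 family genes in NC and 62.4% to 66.0% in shPRMT6, and THBS1 made up 0.247% to 1.61% over the 6 libraries.

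**Figure D1:**
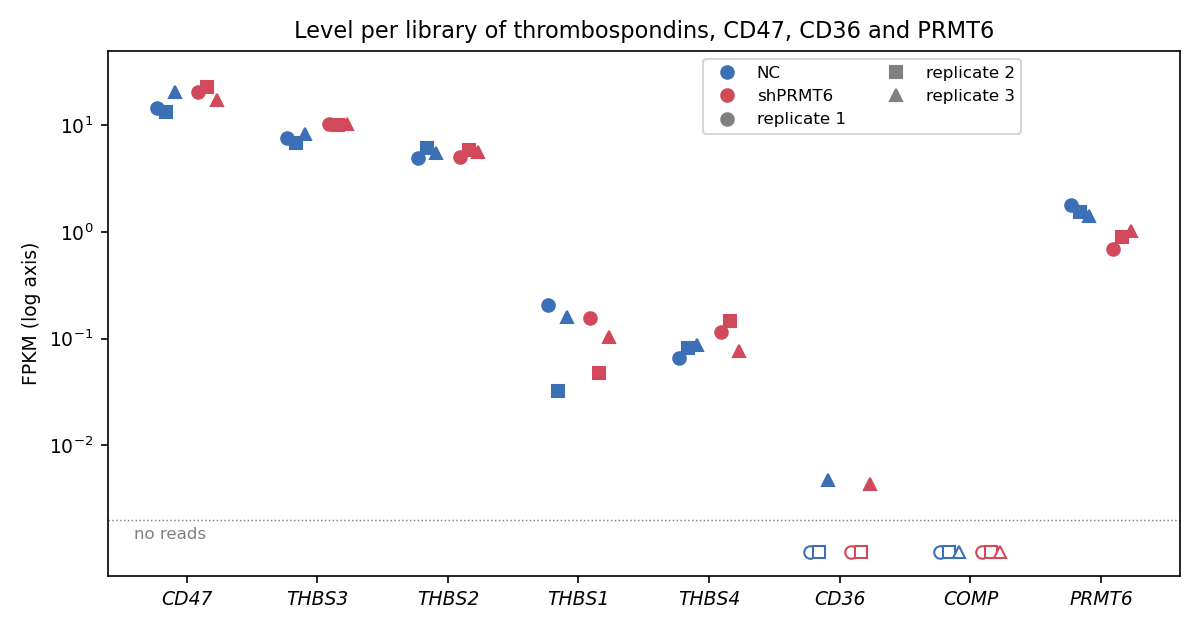
FPKM (log axis) of the 7 members and PRMT6 in each library, NC in blue and shPRMT6 in red, with replicates 1, 2 and 3 as circles, squares and triangles and genes without reads as open symbols under the dotted line. CD47, THBS3 and THBS2 lie between 4.95 and 22.9 FPKM, THBS1 and THBS4 under 0.21 FPKM, and COMP has no reads.

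Of the 7 members 5 passed the filter on low counts and 1, THBS3, was called, which was higher in shPRMT6. In the background of all genes tested, 18.6% were called, 9.51% as higher and 9.06% as lower, so 1 call among 5 members is near the share of called genes. COMP and CD36 were not tested, because their counts were too low. The median log2 fold change of the 5 tested members was 0.32, against -0.01 over all genes tested. Only THBS3 among the 5 had groups that did not overlap, which held for 40.2% of all genes tested, and for 20.3% with shPRMT6 as the higher group. No member had an absolute log2 fold change above 1, the size used in the study, which with an unadjusted p under 0.05 was met by 5.92% of genes tested.

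THBS1 (ENSG00000137801, chr15:39581079-39599466, plus strand), the matrix protein that restrains vessel growth and activates latent TGF-beta, was expressed at a low level. It had 128, 27 and 110 counts in NC replicates 1, 2 and 3 and 111, 32 and 78 counts in shPRMT6 replicates 1, 2 and 3. In CPM this was 2.29, 0.355 and 1.76 in NC (mean 1.47 ± 1.0, SD, n = 3) and 1.74, 0.52 and 1.15 in shPRMT6 (mean 1.14 ± 0.612, SD, n = 3). In each group replicate 2 stood well below the other two libraries, and the groups overlapped. The exact 95% intervals of counting error were 0.234 to 0.518 CPM without TMM scaling for NC replicate 2 and 1.89 to 2.7 for NC replicate 1, so the low libraries differed from the others by more than counting error. The highest NC library had 6.45 times the CPM of the lowest, and the coefficient of variation in NC was 68.1%, against a median of 26.1% over 1238 tested genes of like level.

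The log2 fold change of THBS1 was -0.36 (SE 0.711, 95% interval -2.06 to 1.34, adjusted p = 0.776 by edgeR's quasi-likelihood test). The interval runs from 0.24 to 2.53 times the NC level. The value depended on single libraries. It was -0.83 without NC replicate 2 and -0.80 without shPRMT6 replicate 1, near 0 at -0.02 without shPRMT6 replicate 2, and 0.11 without NC replicate 1, with adjusted p between 0.332 and 0.993 in these fits. A rise of this published PRMT6 target after knockdown was therefore not detectable here.

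THBS2 (ENSG00000186340, chr6:169215780-169254044, minus strand), the other vessel-inhibiting thrombospondin, did not differ beyond the spread between libraries. It had 38.2, 46.8 and 41.5 CPM in NC (mean 42.1 ± 4.35, SD, n = 3) and 38.2, 44.8 and 42.4 CPM in shPRMT6 (mean 41.8 ± 3.32, SD, n = 3). The groups overlapped almost fully, with a log2 fold change of -0.01 (SE 0.104, adjusted p = 0.953 by edgeR's quasi-likelihood test). Its 95% interval of -0.26 to 0.24 covers 0.835 to 1.18 times the NC level, which is far narrower than that of THBS1. Replicate 2, the lowest library of each group for THBS1, was the highest of each group for THBS2.

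THBS3 (ENSG00000169231, chr1:155195588-155209051, minus strand), a pentameric thrombospondin of the matrix, rose in shPRMT6 cells. It had 42.7, 37.6 and 45.3 CPM in NC (mean 41.9 ± 3.91, SD, n = 3) and 56.4, 55.3 and 55.9 CPM in shPRMT6 (mean 55.9 ± 0.525, SD, n = 3). All shPRMT6 libraries lay above all NC libraries and lay close together. The mean was 33.4% higher, with a log2 fold change of 0.42 (SE 0.085, 95% interval 0.21 to 0.62, adjusted p = 0.0192 by edgeR's quasi-likelihood test). By p it ranked 1011 among the genes that were higher in shPRMT6. The fold change was 0.34 to 0.48 on leaving out each library, and the adjusted p was 0.0674, 0.0677 and 0.0652 without shPRMT6 replicate 1, 2 or 3, so the call needed all 3 shPRMT6 libraries.

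THBS4 (ENSG00000113296, chr5:79991311-80083287, plus strand), known from tendon and from reactive astrocytes, was barely expressed. It had 21, 35 and 30 counts in NC and 40, 50 and 30 in shPRMT6, or 0.439 ± 0.0557 CPM in NC and 0.628 ± 0.185 CPM in shPRMT6 (SD, n = 3). The groups overlapped through shPRMT6 replicate 3. Its log2 fold change of 0.51 had a 95% interval of -0.36 to 1.38 (SE 0.364, adjusted p = 0.387 by edgeR's quasi-likelihood test). COMP (chr19:18782773-18791314, minus strand), the cartilage member of the family, had 0 counts in 6 of 6 libraries. A count of 0 allows up to 3 counts, or 0.0395 to 0.0532 CPM in these libraries, for counting error only.

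CD47 (ENSG00000196776, chr3:108043094-108091862, minus strand), the receptor that also protects cells from phagocytosis, was the most abundant member. It had 143, 131 and 199 CPM in NC (mean 158 ± 36.0, SD, n = 3) and 201, 223 and 166 CPM in shPRMT6 (mean 197 ± 29.1, SD, n = 3). NC replicate 3 lay among the shPRMT6 libraries and shPRMT6 replicate 3 lay between the NC libraries, so the groups overlapped. CD47 had a log2 fold change of 0.32 (SE 0.180, 95% interval -0.11 to 0.75, adjusted p = 0.274 by edgeR's quasi-likelihood test). Leaving out NC replicate 3 moved it to 0.52 with an adjusted p of 0.076 in the same test. With about 8012 to 13732 counts a library its counting error was small, yet its coefficient of variation in NC was 22.8%, against a median of 7.02% over 831 genes of like level.

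CD36 (ENSG00000135218, chr7:80369575-80679277, plus strand), the fatty acid and thrombospondin receptor of endothelial cells, macrophages and fat cells, had 4 counts in NC replicate 3, 4 counts in shPRMT6 replicate 3 and 0 in the other 4 libraries. No fold change is given for COMP or CD36. Of these receptors, CD47 alone had more than 4 counts in any library.

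The counting could mix genes that overlap. The library kit named in the labels does not mark strand and strand use in counting is not stated, so reads from genes on opposite strands cannot be told apart. Exons of THBS3 overlap those of THBS3-AS1 over 22.2% of THBS3 exon bases and those of MTX1 over 3.16%. THBS1 exons overlap those of FSIP1 over 4.89% and of THBS1-AS1 over 4.49%, and THBS4 exons those of THBS4-AS1 over 2.87%. No 75-base stretch of any member's transcripts was shared with another gene on the same strand. THBS3-AS1 was low, at 1.99, 2.67 and 2.15 CPM in NC and 3.19, 1.93 and 3.09 CPM in shPRMT6, and was not called (log2 fold change 0.27, SE 0.251, adjusted p = 0.514 by edgeR's quasi-likelihood test).

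The neighbours of THBS3 were examined because it lies in a gene-dense part of chromosome 1. MTX1, a mitochondrial import protein whose nearest RefSeq start is 798 bases from the downstream one of the 2 THBS3 starts, had 8.47 FPKM in NC and 7.32 FPKM in shPRMT6 and was not called (log2 fold change -0.22, SE 0.0833, adjusted p = 0.123 by edgeR's quasi-likelihood test). MUC1, a membrane mucin on the other side of THBS3, had 6.15, 6.04 and 6.31 CPM in NC and 15.5, 11.2 and 9.46 CPM in shPRMT6, and rose by 0.97 (SE 0.192, adjusted p = 0.0174 by the same edgeR test). Without NC replicate 1 or NC replicate 3 MUC1 was not called, with an adjusted p of 0.0531 and 0.0598. MUC1 and THBS3 were thus both higher in shPRMT6, while MTX1 was not called. MTX1 has a near-identical pseudogene close by, so its counts are uncertain.

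Around the other members the directions were mixed. GPR176, an orphan receptor beside THBS1, fell by 0.29 on the log2 scale (adjusted p = 0.0269, edgeR), and FSIP1 was not called, with a log2 fold change of 0.15 (adjusted p = 0.873, edgeR). IFT57, a ciliary transport protein beside CD47, rose by 0.25 (adjusted p = 0.0371, edgeR). Beside CD36, the G protein subunit GNAI1 fell by 0.67 (adjusted p = 0.011, edgeR) and the guidance factor SEMA3C rose by 0.49 (adjusted p = 0.0294, edgeR). MTX3 and SERINC5 beside THBS4, CRTC1 and UPF1 beside COMP, and BBX beside CD47 were not called. The calls of GPR176, IFT57 and SEMA3C were lost on leaving out each of several libraries, with adjusted p up to 0.107, 0.135 and 0.0927.

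**Figure D2:**
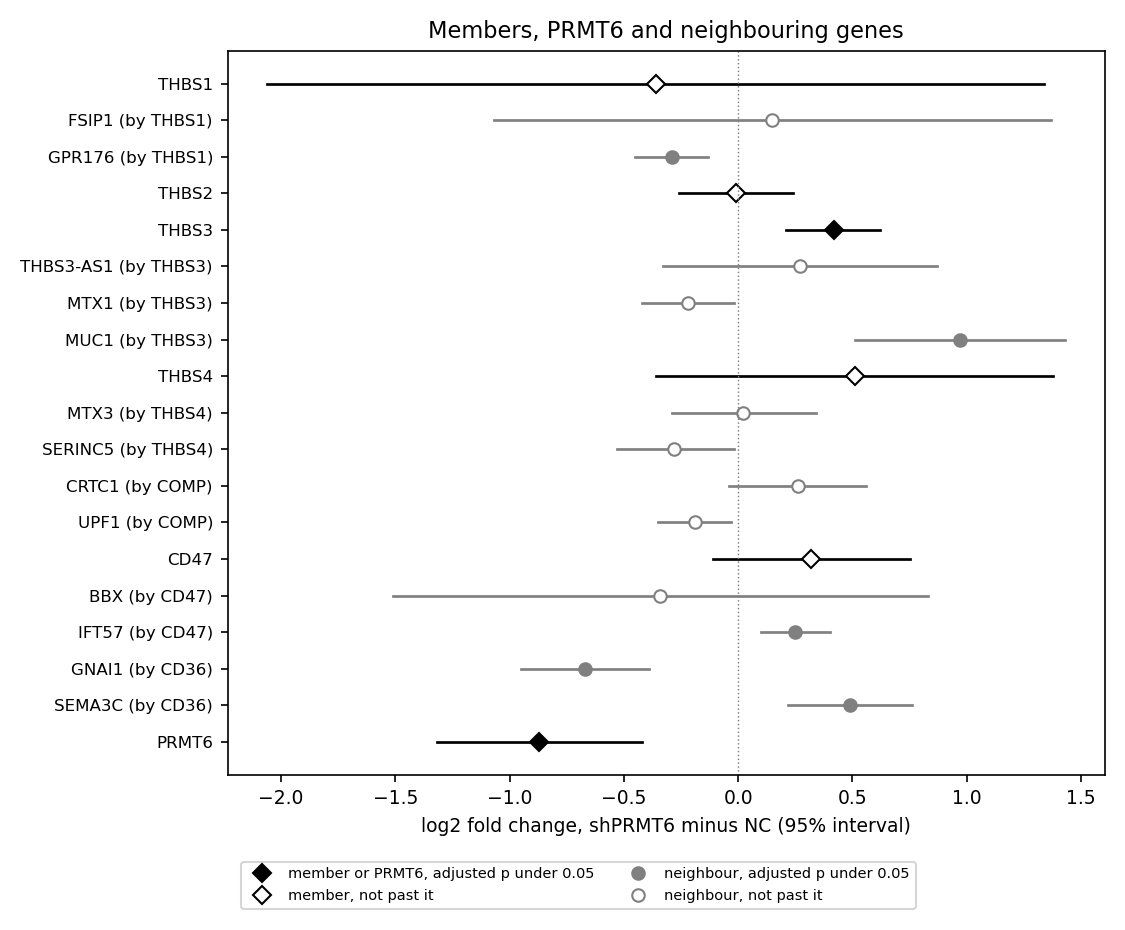
Log2 fold change (shPRMT6 minus NC) with its 95% interval for the 5 tested members and PRMT6 (diamonds) and for tested neighbouring genes (circles), filled where the adjusted p was under 0.05. THBS3 at 0.42 is the only filled diamond among members, the interval of THBS1 runs from -2.06 to 1.34, and MUC1 (0.97), a neighbour of THBS3, is filled as well.

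The genes whose profile over the 6 libraries was most like that of THBS1 were ST3GAL4 (Pearson r = 0.978), IDH3G (0.965), POLRMT (0.965), SLC49A4 (0.960) and STX10 (0.960), among 10051 tested genes whose average log2 CPM was 3 or more. Each of these genes was lowest in replicate 2 of both groups, as THBS1 was, but over a much smaller range. ST3GAL4, a sialyltransferase, had 40.7, 32.2 and 38.3 CPM in NC and 39.0, 32.2 and 35.7 CPM in shPRMT6. These 5 genes were picked for likeness over 6 libraries out of all these candidates, so the correlations describe them and carry no test.

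The wider pathway was read from 9 lists holding 129 genes, of which 89 were tested. Of these 20 were called higher and 17 lower in shPRMT6, or 41.6% of the tested genes, against 18.6% of all genes tested. The lists were chosen with earlier results of these data known, so this difference is not a test of the pathway. The median log2 fold change over the lists was 0.01, so they held rises and falls in like number. Single lists are described next by their counts, which are not tests of the lists. Beside each count for a whole list stands its share called, against 18.6% of all genes tested. Over all genes tested, 9.51% were called higher and 9.06% lower.

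Other cell surface receptors of thrombospondins changed in both directions. Of 15 tested, 3 were called higher and 4 lower, with a median log2 fold change of 0.04. The share called was 46.7%, against 18.6% of all genes tested. The count of lower genes was 2 on leaving out any library other than NC replicate 1. SDC4, a heparan sulfate proteoglycan of focal adhesions, had 125, 115 and 123 FPKM in NC and 39.3, 38.3 and 36.9 FPKM in shPRMT6, and fell by 1.67 on the log2 scale (SE 0.06, adjusted p = 0.000175, edgeR). SDC1, a related syndecan, fell by 0.89 (SE 0.101, adjusted p = 0.00256, edgeR). ITGB3, the integrin beta subunit that pairs with ITGAV to bind the RGD motif, had 33.7, 37.7 and 39.1 FPKM in NC and 63.8, 61.2 and 64.5 FPKM in shPRMT6. ITGB3 rose by 0.77 (SE 0.0644, adjusted p = 0.00115, edgeR), and CALR, the calreticulin that cooperates with LRP1 in THBS1 binding, rose by 0.34 (SE 0.0413, adjusted p = 0.00345, edgeR). The groups of these 4 genes, picked by p, did not overlap, which held for 40.2% of all genes tested. LRP1 itself had 65.1 FPKM in NC and 48.1 FPKM in shPRMT6 and was called lower (log2 fold change -0.44, adjusted p = 0.0431, edgeR). That call was lost on leaving out any library other than NC replicate 1. SDC1 and SDC4 were thus lower and ITGB3 higher in the libraries in which CD47 was not called.

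Among the ligands and enzymes of CD47 and relatives of CD36, 2 of 6 tested genes were called, both higher. The share called was 33.3%, against 18.6% of all genes tested. QPCT, a glutaminyl cyclase, had 7.27, 5.34 and 5.33 FPKM in NC and 11.1, 10.9 and 11.2 FPKM in shPRMT6 and rose by 0.88 (SE 0.142, adjusted p = 0.00861, edgeR). SIRPB1, a myeloid receptor related to SIRPA, stayed under 0.42 FPKM in every library and rose by 1.33 (SE 0.269, adjusted p = 0.0185, edgeR), a call lost without NC replicate 1 or 3 or shPRMT6 replicate 2 or 3, with an adjusted p of up to 0.0645. Without NC replicate 3 or shPRMT6 replicate 2 or 3 the list had 1 call. The list median was 0.09. QPCTL, the relative of QPCT that modifies CD47 for SIRPA binding, had a log2 fold change of 0.27 (adjusted p = 0.0766, edgeR), and SIRPA, the CD47 receptor, one of -0.08 (adjusted p = 0.333, edgeR).

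Latent TGF-beta, which THBS1 can activate, gave 3 higher and 1 lower of 9 tested genes, with a median of 0.32. The share called was 44.4%, against 18.6% of all genes tested. LTBP1, which tethers latent TGF-beta to the matrix, had 21.5, 25.3 and 26.4 FPKM in NC and 54.8, 53.8 and 57.0 FPKM in shPRMT6. It rose by 1.17 (SE 0.0808, adjusted p = 0.00066, edgeR), while its relative LTBP4 fell by 0.56 (SE 0.0663, adjusted p = 0.00301, edgeR). TGFB3 rose by 1.35 from a mean of 0.515 FPKM (adjusted p = 0.00794, edgeR), and NRROS, a docking protein for latent TGF-beta, by 0.97 (adjusted p = 0.0208, edgeR), which 5 of the 6 fits that left out a library did not call. TGFB1 itself, at 71.6 FPKM in NC and 69.8 FPKM in shPRMT6, was not called.

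Matrix partners of COMP changed in both directions. Of 11 genes 6 were tested, 1 was called higher and 2 lower, with a median of -0.73. The share called was 50%, against 18.6% of all genes tested. FN1, fibronectin, had 128, 159 and 141 FPKM in NC and 87.4, 84.5 and 88.8 FPKM in shPRMT6, and fell by 0.72 (SE 0.0802, adjusted p = 0.00246, edgeR). MATN2, a matrilin, rose by 0.70 (adjusted p = 0.0104, edgeR). MATN3 fell by 0.73 from a mean of 0.539 FPKM (adjusted p = 0.0423, edgeR), a call lost on leaving out any 1 library, with an adjusted p of up to 0.125.

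The ADAMTS proteases carry the same type 1 repeats as THBS1. Of 12 tested, 4 were called higher and 2 lower, with a median of 0.31. The share called was 50%, against 18.6% of all genes tested. The count of higher genes fell to 2 without NC replicate 2 or 3 and to 1 without any of the other 4 libraries. ADAMTS12 had 2.2, 2.62 and 2.49 FPKM in NC and 5.01, 5.11 and 5.3 FPKM in shPRMT6 and rose by 1.07 (SE 0.0841, adjusted p = 0.001, edgeR). The aggrecanase ADAMTS4 fell by 1.11 (adjusted p = 0.00256, edgeR) and ADAMTS6 by 0.61 (adjusted p = 0.00891, edgeR). ADAMTS5, a second aggrecanase, rose by 0.44 (adjusted p = 0.0265, edgeR), which 5 of 6 fits that left out a library did not call. The aggrecanases ADAMTS4 and ADAMTS5 thus moved in opposite directions.

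Other proteins with type 1 repeats gave 4 higher and 1 lower of 20 tested, with a median of 0.02. The share called was 25.0%, against 18.6% of all genes tested. CCN3, a matricellular growth regulator, had 8.5, 8.49 and 7.91 FPKM in NC and 16.1, 16.5 and 17.0 FPKM in shPRMT6 and rose by 0.99 (SE 0.0727, adjusted p = 0.000789, edgeR). THSD4, which promotes fibrillin assembly, rose by 1.44 (adjusted p = 0.000508, edgeR) and HMCN1, a hemicentin, by 1.20 (adjusted p = 0.00836, edgeR). ADGRB2, an adhesion receptor of the brain angiogenesis inhibitor family, fell by 0.59 (adjusted p = 0.00607, edgeR).

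Published regulators of THBS1 transcription were mostly not called. Of 9 tested, 2 were called higher and 1 lower, or 33.3%, against 18.6% of all genes tested, with a median of -0.07. The count of higher genes was 1 on leaving out any library other than NC replicate 2. JUN, an AP-1 subunit, had 105, 108 and 104 FPKM in NC and 151, 149 and 154 FPKM in shPRMT6 and rose by 0.51 (SE 0.0467, adjusted p = 0.00148, edgeR). EGR1, an immediate early factor, rose by 0.27 (adjusted p = 0.0377, edgeR), which 5 of 6 fits that left out a library did not call. The AP-1 letters were not found in the 250 bases before the THBS1 start.

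Other genes published as repressed by PRMT6 were examined beside THBS1. CDKN1A, the cell cycle inhibitor p21, had 124, 104 and 127 FPKM in NC and 76.1, 72.7 and 71.7 FPKM in shPRMT6, and fell by 0.69 (SE 0.0866, adjusted p = 0.00363, edgeR). CDKN1B had a log2 fold change of 0.16 (SE 0.061, adjusted p = 0.116, edgeR), and CDKN2A was too low to be tested. None of THBS1, CDKN1A and CDKN1B was called higher.

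Angiogenesis genes, the setting in which THBS1 and THBS2 are best known, gave 1 higher and 5 lower of 11 tested, with a median of -0.36. The share called was 54.5%, against 18.6% of all genes tested, in a list chosen with earlier results known. The gene called higher was ANGPT1, an angiopoietin, which rose by 1.20 from a mean of 0.46 FPKM in NC (adjusted p = 0.0292, edgeR). This call was absent without NC replicate 2 or any of the shPRMT6 libraries. VEGFA, the main vessel growth factor, had 147, 150 and 146 FPKM in NC and 116, 116 and 115 FPKM in shPRMT6 and fell by 0.36 (SE 0.0403, adjusted p = 0.00246, edgeR). VEGFC fell by 0.44 (adjusted p = 0.00851, edgeR), VEGFB by 0.47 (adjusted p = 0.0107, edgeR) and NRP2, a VEGF co-receptor, by 0.69 (SE 0.0517, adjusted p = 0.000814, edgeR). Each of these 4 genes, picked by p, was lower in every shPRMT6 library than in any NC library. Groups did not overlap, in either direction, for 40.2% of all genes tested. VEGFA, VEGFB and VEGFC were lower in the same libraries in which THBS1 and THBS2 were not called. Of the other VEGF family ligands listed, PGF was not called (log2 fold change 0.46, adjusted p = 0.325, edgeR). VEGFD was too low to be tested.

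**Figure D3:**
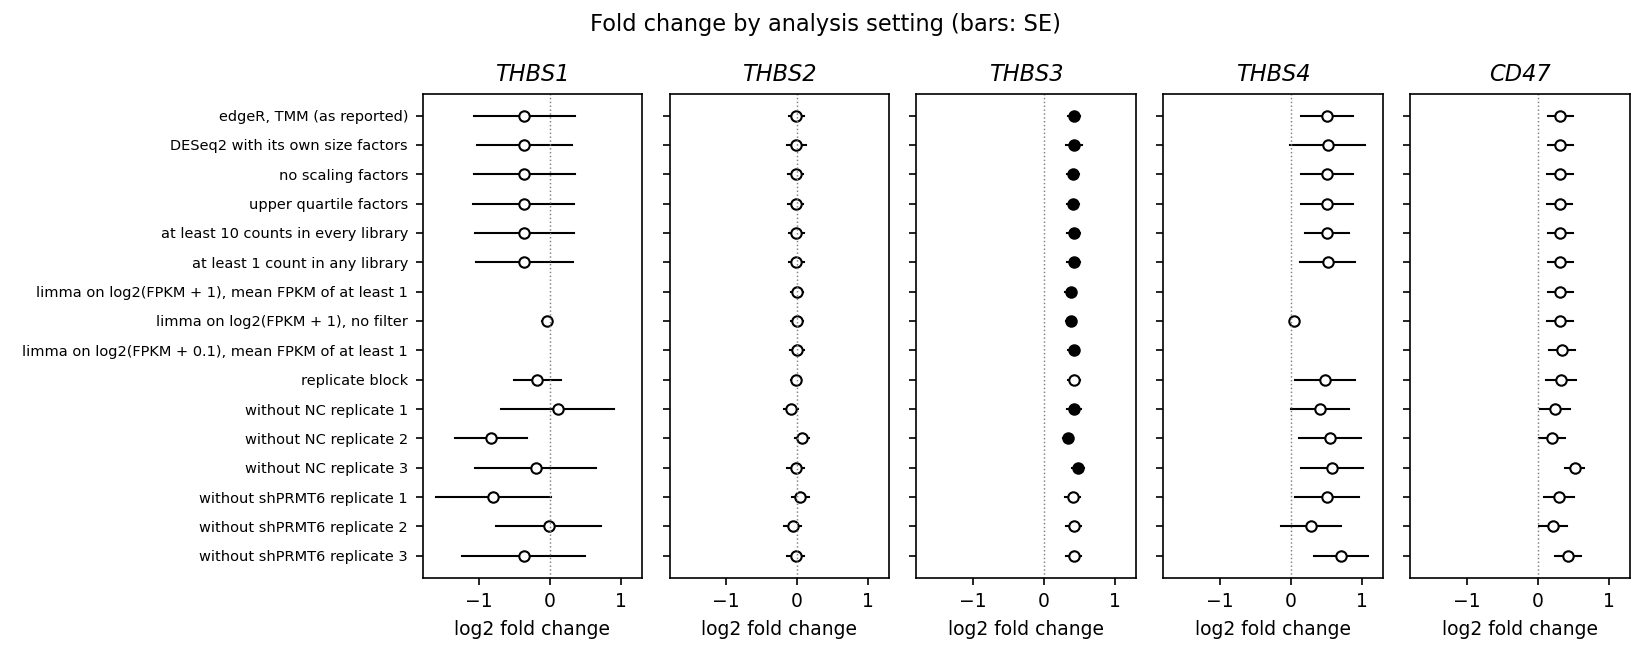
Log2 fold change (shPRMT6 minus NC) of the 5 tested members under each analysis setting, with bars of 1 SE, filled where the adjusted p was under 0.05. THBS3 stays between 0.34 and 0.48 but is not filled without any of the shPRMT6 libraries or with a replicate block, and THBS1 moves between -0.83 and 0.11.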

How the data were processed

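The 3 NC and 3 shPRMT6 libraries were grouped by the labels. The authors deposited raw counts per gene and FPKM values, and the submitters' processing notes name HISAT2, HTSeq 0.13.5 and GRCh38. The counts went into edgeR 4.0.16 (R 4.3.3, TMM, filter by condition, no replicate block). Alternatives were DESeq2 1.42.0, other scalings and count filters, limma 3.58.1 on log2(FPKM + 1) or log2(FPKM + 0.1), a replicate block, the study's threshold and each library left out. No libraries were duplicates (chi-square per degree of freedom within groups 48.2 to 78.4).

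Members and lists were chosen with earlier results of these data known. By rule, the text names the members, PRMT6, up to 4 called genes per list by p, overlapping and nearest genes, and the 5 genes most like THBS1. QPCTL, SIRPA, TGFB1, CDKN1B, LRP1, ANGPT1, PGF and VEGFD were named after their values were seen. The values of 2 genes that the rule names are not reported here. Exons came from GENCODE 29 and promoters from RefSeq.

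In simulated data of this comparison (200 of 18106 genes changed), the dispersion was constant, trended or per gene. In that order, false calls were 1.67%, 6.21% and 6.41% of all calls for edgeR and 12.2%, 16% and 29.5% for DESeq2. The other dispersions were added after the excess of DESeq2 had been seen with the trended one. With the per-gene dispersion edgeR recovered 58.3% of 2-fold and 91.2% of 4-fold changes. Changed genes were drawn only from those above a minimum level that THBS4 does not reach, and no change under 2-fold was simulated. Far fewer genes were changed than the 3362 called in these data, and the share of false calls depends on that number. The simulated shares therefore do not cover THBS4 or a change as small as that of THBS3. They are also not rates for the calls in these data.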

Additional observations from a re-analysis of the deposited data

How the results depend on the processing

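THBS3, CD47 and THBS4 kept their direction under every alternative run, and no member other than THBS3 was called under any. THBS3 was called under the 3 scalings, both count filters and the 3 limma fits (log2 fold change 0.38 to 0.42), though not at the study's threshold, where its value is 0.42. The replicate numbers pair nothing in the labels, and deviations of libraries with the same number were uncorrelated (r from -0.0301 to -0.0171). With a replicate block the value of THBS3 was 0.42 (adjusted p = 0.0515) and that of PRMT6 -0.88 (adjusted p = 0.0803, edgeR), and the counts of genes called were 950 higher and 908 lower, against 1721 and 1641 without it. PRMT6 was also not called by limma on unfiltered log2(FPKM + 1) values (-0.47) or at the study's threshold (-0.87), which 596 genes met as higher and 476 as lower. Leaving out each library gave -0.83 to 0.11 for THBS1 (0.11 without NC replicate 1), -0.08 to 0.07 for THBS2 (0.07 without NC replicate 2, 0.05 without shPRMT6 replicate 1), 0.34 to 0.48 for THBS3, -1.0 to -0.73 for PRMT6, 898 to 1661 genes higher, 857 to 1522 lower, and 12 to 17 genes of the 9 lists higher, against 20. Neighbours that were not called changed sign on leaving out a library, namely FSIP1 (-0.34 to 0.45, with -0.19 without NC replicate 1), MTX3 (-0.09 to 0.13, with -0.02 without shPRMT6 replicate 3) and BBX (-0.66 to 0.07). Of 33 other called genes that the rule names and whose values are given, 23 were called under every alternative that tested them. Of these 33, 9 lost the call on leaving out some library. The causes were not tested. Low counts leave CD36 and COMP without a test.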
